A study of Mus musculus with 16 samples.

Results

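Fcgbp, Zg16 and Reg3a are 3 genes whose secreted products sit in the intestinal mucus or act on bacteria near it. They were taken by gene name from a deposited table of 2438 listed genes, and all 3 names were found once. Fcgbp and Zg16 are made by goblet cells, the mucus-secreting cells of the gut lining. FCGBP is a large protein built from von Willebrand D domains that is bound into the mucus gel, and ZG16 is a small lectin-like protein that binds Gram-positive bacteria and was first described in zymogen granules of the rat pancreas. REG3A belongs to the REG3 family of C-type lectins, whose intestinal members kill or agglutinate bacteria and are induced through interleukin-22 and bacterial signals. Genes of the REG family are expressed in the pancreas as well.

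Transcripts were measured by RNA sequencing in the duodenal epithelium of mice without Ephb4 in intestinal epithelial cells (KO, 7 libraries, replicates 1 to 5, 7 and 8) and of mice with floxed Ephb4 alleles (flox, 9 libraries, replicates 1 to 7, 9 and 10). High fat feeding began at 8 weeks of age and lasted 19 weeks in both groups, so no group on a standard diet enters any comparison. Ephb4 encodes a receptor tyrosine kinase that binds ephrin-B2; no source used here names the Cre driver of its deletion. The sample is named as epithelium in the labels and as proximal small intestinal tissue in the design text.

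The deposited values are read counts divided by 1 size factor per library, called normalised counts here. The table holds only genes with an adjusted p under 0.05 in the authors' own comparison, that is 2438 of 16488 genes adjusted over, or 14.8%, and 7.81% were listed as lower in KO. All 3 genes were therefore selected as different on the same libraries that are compared below, and absence from the list can mean either a p above the threshold or no test. The listed genes took 3592468 to 4555872 recovered reads in KO libraries and 4237178 to 5316273 in flox libraries; total depth is unknown. Ephb4 itself had 23.3 to 84.7 normalised counts in KO and 103 to 354 in flox, with no overlap, and KO replicate 1 held the 84.7. Listed markers of other cells also differed between the groups, the pancreatic ones in only part of the flox libraries. Of 60 markers of lymphocytes, mast cells, myeloid cells, stroma and endothelium 11 were listed, all 11 higher in KO. Whether this share differs from the 14.8% of all genes was not tested. The summed level of these 11 ranged from 894 to 3512 normalised counts in KO and from 749 to 1886 in flox. Of 33 pancreatic acinar genes, with Spink1 left out, 24 were listed, with a summed level of 404 to 1786 in KO. In flox it was 7283 to 151344 in replicates 4, 6, 7, 9 and 10 and 399 to 524 in the other 4 libraries. With Spink1, which was also listed as lower in KO, the sum was 4975 to 7947 in KO and 5653 to 162681 in flox. Listed markers of mature enterocytes, 7 of 15, summed to 379069 to 621080 in KO and 579120 to 822177 in flox. In bulk tissue, fewer cells of a type and less RNA per cell cannot be told apart.

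RefSeq holds a promoter window on GRCm38.p6 for Fcgbp and for Reg3a, and none was available for Zg16. Both windows are shown because each of these genes was listed as lower in KO, and a shared regulation was not tested. Each stretch is the 250 bases before the annotated start on the plus strand. Capitals mark matches to any of 6 short motifs searched on both strands.
Fcgbp, chr7:28070986-28071235: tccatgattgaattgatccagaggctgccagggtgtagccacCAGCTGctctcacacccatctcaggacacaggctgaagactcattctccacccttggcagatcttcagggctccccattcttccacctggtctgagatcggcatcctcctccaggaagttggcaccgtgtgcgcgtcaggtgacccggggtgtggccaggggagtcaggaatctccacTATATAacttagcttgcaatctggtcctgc
Reg3a, chr6:78380459-78380708: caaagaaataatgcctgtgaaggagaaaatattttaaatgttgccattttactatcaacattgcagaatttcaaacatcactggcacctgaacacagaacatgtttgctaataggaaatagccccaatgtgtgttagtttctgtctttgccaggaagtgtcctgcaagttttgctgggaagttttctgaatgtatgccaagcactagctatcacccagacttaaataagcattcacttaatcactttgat

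In the Fcgbp window the TATA box variant TATATA lay at positions -30 to -25 from the start, and the E-box CAGCTG, of the class that the goblet cell regulator ATOH1 binds, lay at positions -208 to -203. The motif TATATA is held by 5.25% and CAGCTG by 13.0% of all 32851 windows of the same length. The letters TATAAA (12.4% of windows), the STAT motif TTCNNNGAA (7.02%), the GATA motif AGATAA (9.99%) and the HNF4 motif CAAAGTCCA (0.384%) were in neither window, and none of the 6 was in that of Reg3a. These motifs were picked after the sequences were read. They describe the letters in these windows only.

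Fcgbp (ENSMUSG00000047730, chromosome 7, 28071236 to 28120862, plus strand, GRCm38) was among the most abundant listed transcripts and was 1.30-fold lower in KO. KO libraries had 49188 normalised counts at the lowest, 56321 at the median and 68486 at the highest, against 60954, 68874 and 97213 in flox libraries. The ranges overlapped, but 5 of 7 KO libraries lay below the lowest flox library and 5 of 9 flox libraries lay above the highest KO library. The means were 57277 ± 6511 in KO (SD, n = 7) and 74257 ± 13794 in flox (SD, n = 9). Fcgbp was lower in the KO library in 58 of the 63 pairs of a KO and a flox library.

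For Fcgbp, the log2 fold change was -0.37 in the authors' deposited table (adjusted p = 0.0124). In limma, fitted on log2(normalised count + 1) of all listed genes with Benjamini-Hochberg adjustment over 16488 genes, the log2 difference was -0.36 ± 0.11 (SE; 95% interval -0.59 to -0.13), with an adjusted p of 0.0517 that missed the threshold of 0.05. For scale, 4.97% of the 16488 genes passed limma as lower in KO. Unlisted genes entered the adjustment as not passing, here and in the later fits on listed genes. That step can only raise the adjusted p-values and lower the shares of genes passing. Selection of the fitted genes on these same libraries favours low p-values instead, so a near miss cannot be read in either direction. An exact two-sided permutation test over all 11440 assignments of the genotype labels gave an unadjusted p of 0.00411. A gene listed from these same libraries was likely to have a low unadjusted p. In limma, 2306 of the 2339 listed genes averaging 10 or more normalised counts had an unadjusted p under 0.05. The exact permutation p-values given below for Fcgbp, Zg16 and Reg3a carry the same limit. The 2 highest flox libraries, replicates 4 and 10, at 97213 and 96023, also held pancreatic transcripts. Without the 5 flox libraries that held them, the flox mean was 68315 ± 8271 (SD, n = 4), the log2 difference was -0.25 and the exact permutation p was 0.0424, with 330 assignments. Part of the count may belong to a relative: 6.45% of the 50-base stretches of Fcgbp transcripts also occur in other genes' transcripts, nearly all of them in 9530053A07Rik, which was not listed.

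Zg16 (ENSMUSG00000049350, chromosome 7, 127050156 to 127087328, minus strand, GRCm38) was 1.23-fold lower in KO. KO libraries had 31479, 37544 and 46653 normalised counts at the lowest, median and highest, against 37326, 44408 and 63087 in flox libraries. The groups overlapped more than for Fcgbp: 3 of 7 KO libraries lay below the lowest flox library, and 4 of 9 flox libraries lay above the highest KO library. The lowest value of all was in KO replicate 1 and the highest in flox replicate 10. The means were 38305 ± 4987 in KO (SD, n = 7) and 47114 ± 7652 in flox (SD, n = 9), and 55 of the 63 pairs of libraries were lower in KO.

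For Zg16, the log2 fold change in the authors' deposited table was -0.30, with an adjusted p of 0.0416. In limma the log2 difference was -0.29 ± 0.11 (SE; 95% interval -0.52 to -0.07), with an adjusted p of 0.0994, which missed the threshold, and an exact permutation p of 0.0140. Without KO replicate 1, which held the highest summed non-epithelial markers (3512) and the lowest enterocyte markers (379069), the log2 difference was -0.25 and the exact permutation p was 0.0346. With the mean level of the 11 non-epithelial markers as a covariate it was -0.16, with a 95% interval of -0.48 to 0.16. In that fit Fcgbp was at -0.32, with an interval of -0.67 to 0.02. All 11 markers were themselves listed as higher in KO, so their level overlaps with genotype and the fit cannot tell them apart. No 50-base stretch of Zg16 was found in another gene's transcripts.

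Reg3a (ENSMUSG00000079516, chromosome 6, 78380709 to 78383827, plus strand, GRCm38) had the largest fold change of the 3 genes, 1.74-fold lower in KO, and the widest spread. KO libraries had 874, 1641 and 2262 normalised counts at the lowest, median and highest, against 1213, 2774 and 4126 in flox libraries. Only 2 of 7 KO libraries lay below the lowest flox library, while 6 of 9 flox libraries lay above the highest KO library. The means were 1549 ± 510 in KO (SD, n = 7) and 2701 ± 973 in flox (SD, n = 9). The SD was 32.9% of the mean in KO and 36.0% in flox, against 11.4% and 18.6% for Fcgbp and 13.0% and 16.2% for Zg16. Of the 63 pairs of libraries, 54 were lower in KO.

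For Reg3a, the authors' deposited table put the log2 fold change at -0.80 (adjusted p = 0.00866). In limma the log2 difference was -0.78 ± 0.25 (SE; 95% interval -1.31 to -0.25), with an adjusted p of 0.0651, which missed the threshold, and an exact permutation p of 0.0150. Adjusted for the non-epithelial markers, the difference was -0.61, with an interval of -1.46 to 0.24. No 50-base stretch of Reg3a was found in other genes' transcripts, its REG relatives included.

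**Figure D1:**
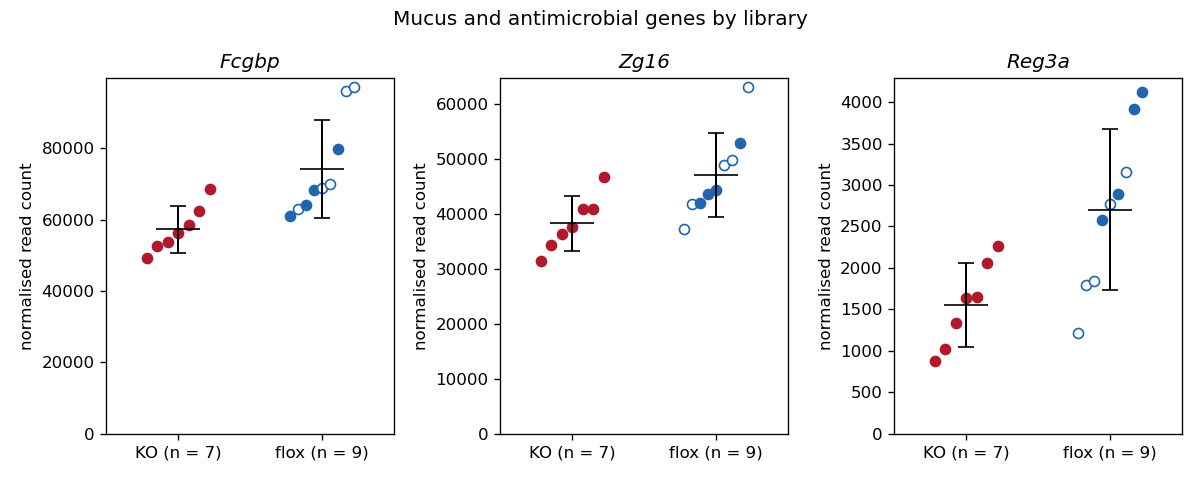
Normalised read counts of Fcgbp, Zg16 and Reg3a (vertical axes, starting at 0) in 7 KO and 9 flox libraries; points are libraries, open points are the 5 flox libraries with pancreatic transcripts, and bars give the mean ± SD. All 3 genes overlap between the groups, and the 3 lowest flox values of Reg3a, from 1213 to 1841, are open points.

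The flox libraries with pancreatic transcripts included the 3 lowest Reg3a values of that group and its 2 highest Fcgbp values. The 5 flox libraries with pancreatic transcripts had 1213 to 3163 normalised counts of Reg3a, and the 4 without had 2582 to 4126. Flox replicates 7 and 9, at 2774 and 3163, lay within the range of the 4 without. Among KO libraries, replicate 7 held the most pancreatic transcripts, at 1786, and the fewest Reg3a counts, at 874. The other KO libraries did not follow that order. Replicate 4 had the next fewest Reg3a counts, 1026, at 424 pancreatic counts, and replicate 5 had the most, 2262, at 554. Within flox the libraries fell into separate clusters by pancreatic level, so no correlation is given. With all 5 left out, a choice made after seeing the data, KO and flox no longer overlapped for Reg3a, which was 2.18-fold lower in KO, at 1549 ± 510 (SD, n = 7) against 3382 ± 758 (SD, n = 4). The log2 difference was then -1.17 ± 0.24 (SE), and the exact permutation test gave 0.00303, the lowest p possible with 330 assignments. Its adjusted p in limma was 0.0698, and 12.1% of the 2339 listed genes that averaged 10 or more normalised counts were also lower in KO without overlap in this comparison, against 5.47% with all libraries. With the pancreatic score as a covariate, Reg3a passed limma, with a log2 difference of -1.14 ± 0.22 (SE) and an adjusted p of 0.0235, where 1.63% of the 16488 genes passed as lower. Fcgbp and Zg16 did not pass in that fit, at -0.26 (adjusted p = 0.362 in limma) and -0.26 (adjusted p = 0.406 in limma). All 24 genes of the score were themselves listed as lower in KO. The highest score in KO was 5.04, and scores of 7.12 to 11.6 occurred in flox only. The score thus overlaps with genotype, and the fit cannot tell them apart.

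**Figure D2:**
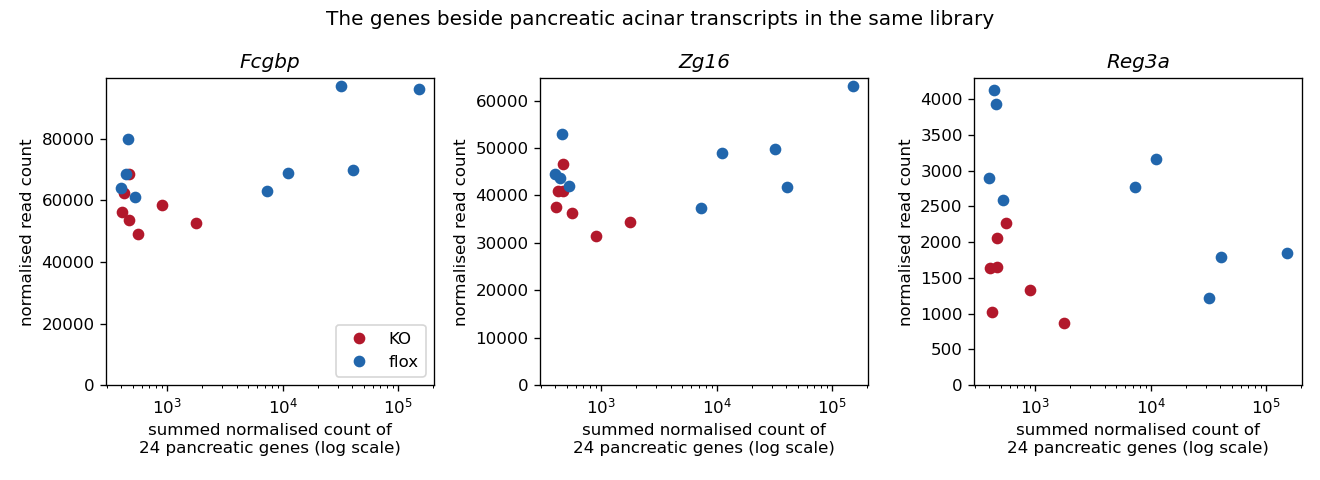
Normalised count of each gene (vertical axes) against the summed normalised count of 24 pancreatic acinar genes in the same library (horizontal axes, log scale); each point is 1 of the 16 libraries. The 5 flox libraries to the right, from 7283 to 151344 pancreatic counts, include the 2 highest Fcgbp values and the 3 lowest flox values of Reg3a.

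Other ways of testing did not settle on one side of the threshold. On recovered whole reads, edgeR's quasi-likelihood test gave adjusted p-values of 0.0521 for Fcgbp, 0.100 for Zg16 and 0.0538 for Reg3a, with 4.98% of the 16488 genes lower and called. DESeq2 on the same reads, which nearly repeats the authors' own selection and is no separate support, gave adjusted p-values of 0.0104, 0.0386 and 0.00904, with 7.52% lower and called. Without KO replicates 1 and 3, a choice made after seeing the data, these DESeq2 values were 0.0599 for Fcgbp, 0.184 for Zg16 and 0.0947 for Reg3a. The size of the difference depended on how libraries were scaled. TMM scaling on the listed genes moved the median log2 difference of all of them by 0.14, from -0.25 to -0.11, and left Fcgbp at -0.22, Zg16 at -0.15 and Reg3a at -0.64. With TMM, 724 genes passed limma as higher and 189 as lower in KO, against 449 higher and 820 lower with the deposited scaling. With quantile normalisation over the listed genes, Fcgbp was at -0.02, Zg16 turned to 0.06 and Reg3a was at -0.46. The median log2 difference of all genes was then 0.006. Both scalings used only genes selected as different, whose abundant members were mostly lower in KO. They therefore pull abundant genes toward 0 by construction and cannot tell a scaling effect from a shared decrease.

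**Figure D3:**
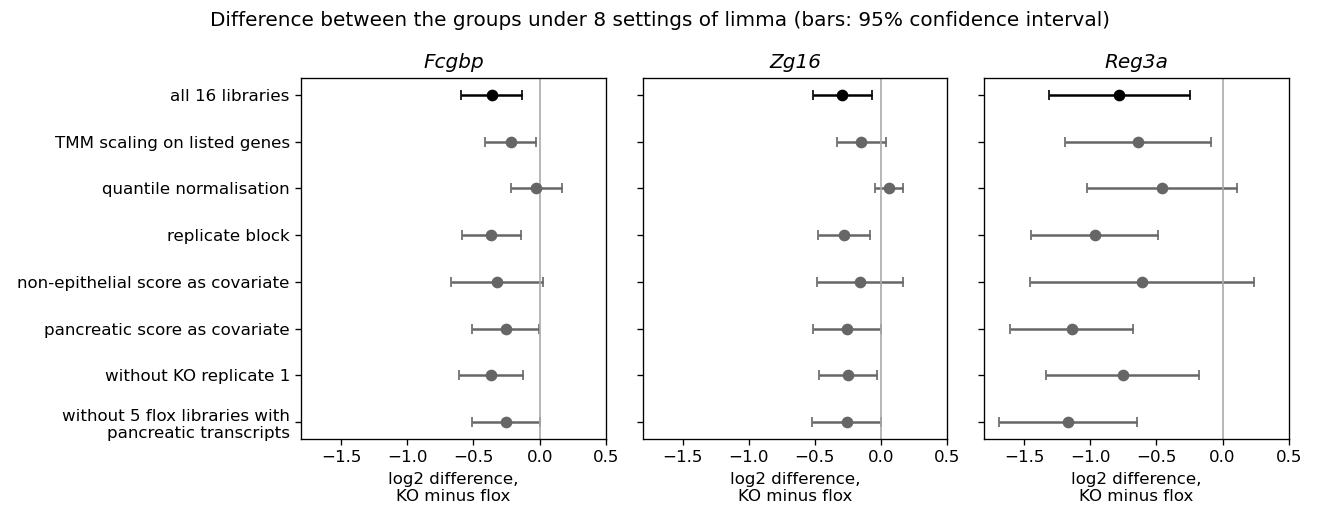
Log2 difference (KO minus flox, horizontal axes) of each gene under 8 settings of limma, with 95% confidence intervals. The estimates of Fcgbp and Reg3a stay below 0 in each of the 8. That of Reg3a is lowest, at -1.17, without the 5 flox libraries with pancreatic transcripts. The interval of Reg3a reaches above 0 with quantile normalisation (-1.02 to 0.11) and with the non-epithelial markers as covariate (-1.46 to 0.24). The interval of Fcgbp does so in the same settings and, barely, without the 5 flox libraries. The estimate of Zg16 crosses to 0.06 with quantile normalisation (-0.05 to 0.17). The interval of Zg16 also reaches above 0 with TMM scaling (-0.34 to 0.04) and with the non-epithelial markers as covariate (-0.48 to 0.16). With the pancreatic score as covariate it barely does so (-0.515 to 0.003).

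Since library scaling cancels in a ratio of 2 genes within a library, the 3 pairs were also compared as log2 ratios by exact two-sided permutation tests, with p-values adjusted over the 3 pairs. The proportion of the mucus genes to each other was not shown to differ. Fcgbp counts were 1.31 to 1.86 times those of Zg16 in KO libraries and 1.41 to 1.95 times in flox libraries, and the log2 ratio of Zg16 over Fcgbp differed by 0.07 between the groups (p = 0.395, adjusted p = 0.395, exact permutation). The log2 ratio of Reg3a over Zg16 was -4.69 ± 0.47 in KO (SD, n = 7) and -4.20 ± 0.66 in flox (SD, n = 9), a difference of -0.49 that did not pass (p = 0.119, adjusted p = 0.344, exact permutation). Reg3a over Fcgbp was -5.27 ± 0.53 in KO and -4.85 ± 0.75 in flox, a difference of -0.42 (p = 0.230, adjusted p = 0.344, exact permutation). With all 16 libraries, Reg3a was thus not shown to differ more between the groups than the mucus genes did. The 5 flox libraries with pancreatic transcripts held the 3 lowest flox ratios of Reg3a over each mucus gene. Leaving them out, a choice made after seeing the data, thus raised the flox mean of these ratios. The differences were then -0.91 for Reg3a over Zg16 and -0.92 for Reg3a over Fcgbp, each with an adjusted exact permutation p of 0.0273. These p-values do not account for that choice.

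**Figure D4:**
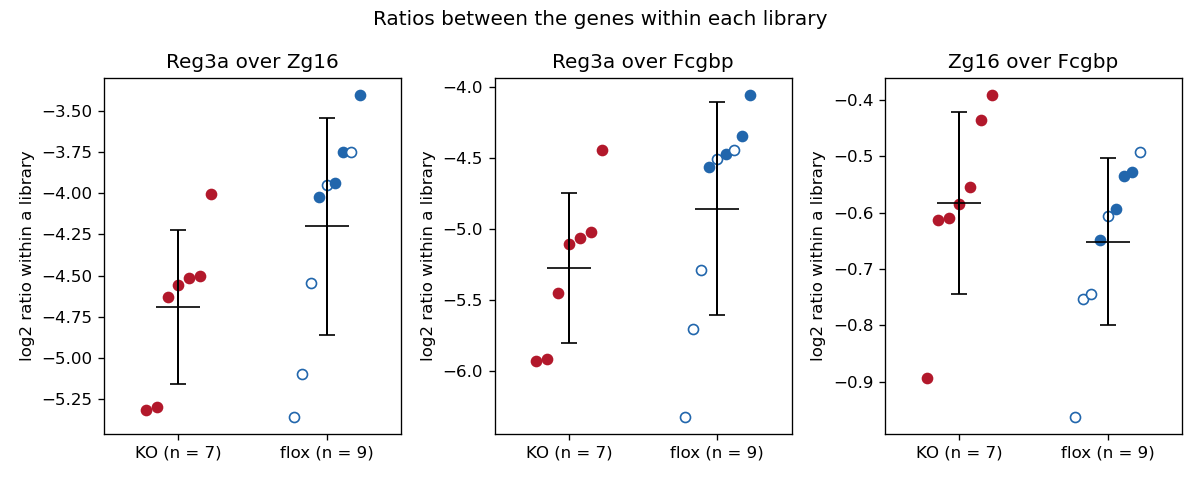
Log2 ratio between pairs of the genes within each library (vertical axes) in KO and flox; open points are flox libraries with pancreatic transcripts, and bars give the mean ± SD. The Zg16 over Fcgbp ratio differs by 0.07 between the groups, and the 3 lowest flox ratios of Reg3a over each mucus gene are open points.

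Levels per length placed Zg16 far above the other genes. Divided by exonic length in kilobases, Zg16 averaged 30474 ± 3968 normalised counts per kilobase in KO (SD, n = 7) and 37481 ± 6088 in flox (SD, n = 9). Fcgbp, with a length of 10497 bases, averaged 5456 ± 620 in KO and 7074 ± 1314 in flox, and Reg3a, with 825 bases, averaged 1878 ± 618 in KO and 3274 ± 1180 in flox. On this scale Zg16 ranked 7 of the 2438 listed genes, Fcgbp 35 and Reg3a 100. By normalised count without regard to length, the ranks were 13 for Zg16, 5 for Fcgbp and 423 for Reg3a.

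At such levels, lower values in KO were the rule among listed genes. Of 65 listed genes averaging 10000 normalised counts or more, 64 were lower in KO in the authors' deposited table, and the median of their log2 fold changes was -0.37. Fcgbp ranked 31 and Zg16 ranked 54 from the most negative of them, so neither stood out. Of 703 listed genes with a mean from 1000 to 10000, 648 were lower, the median was -0.35, and Reg3a ranked 21 from the most negative. As a share of the summed listed signal, Fcgbp made up 1.49% ± 0.17 in KO (SD, n = 7) and 1.51% ± 0.17 in flox (SD, n = 9), and Zg16 made up 0.993% ± 0.057 in KO and 0.962% ± 0.092 in flox. Reg3a made up 0.0400% ± 0.0121 in KO and 0.0560% ± 0.0207 in flox. These sums run over genes selected as different, whose abundant members were mostly lower in KO, and are given as a description.

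**Figure D5:**
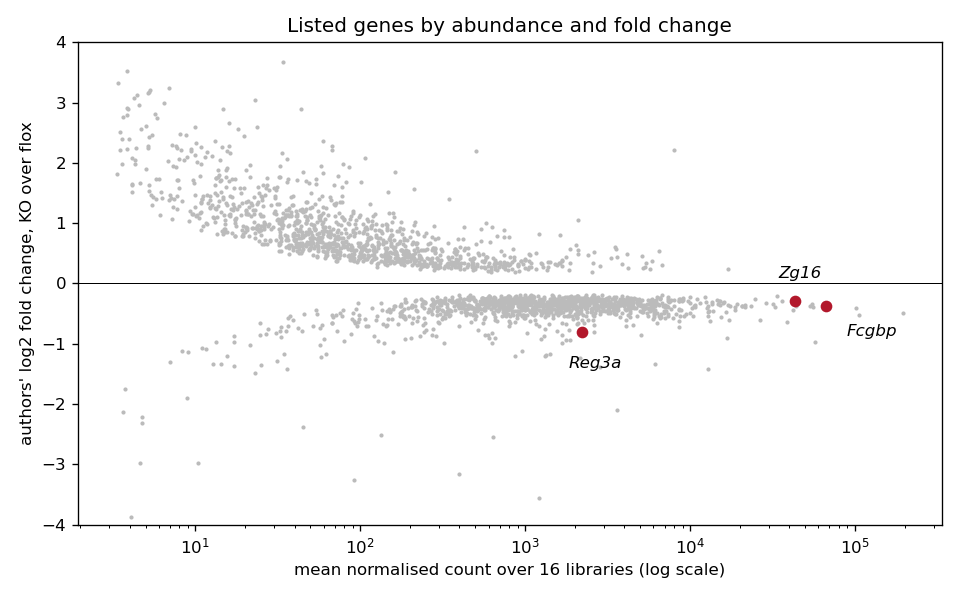
Log2 fold change (KO over flox, as deposited; vertical axis) against the mean normalised count over 16 libraries (horizontal axis, log scale) for the listed genes; 30 genes beyond 4 in either direction are outside the plot. Fcgbp at -0.37 and Zg16 at -0.30 lie within the band of abundant lower genes, and Reg3a at -0.80 lies below it.

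Other genes of the same cell types and pathways were read from lists. Of 20 goblet cell genes 3 were listed, namely Fcgbp, Zg16 and Bcas1, all lower in KO; this share of 15% is about the 14.8% of all genes, and 2 of the 3 are the genes described above. Their median in the authors' deposited table was -0.35 on the log2 scale, close to the -0.37 of all 1288 listed genes lower in KO; over all listed genes in either direction it was -0.23. Bcas1 had 292 ± 29 normalised counts in KO (SD, n = 7) and 370 ± 68 in flox (SD, n = 9). The gel-forming mucin Muc2, the trefoil peptide Tff3, the disulfide isomerase Agr2 that mucin folding needs, and the regulators Spdef and Atoh1 were not among them. Of 15 other genes of mucins, trefoil peptides and mucus-linked proteins only Cdhr5, a mucin-like protocadherin of the brush border, was listed, at 27676 ± 4647 in KO and 35227 ± 4603 in flox. None of 13 Paneth cell genes was listed.

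Of 7 Reg genes only Reg3a was listed, a share of 14.3% that is about the 14.8% of all genes. It lies in a cluster of 6 Reg genes on chromosome 6, between positions 78370657 and 78468872, with Reg3b, Reg3d, Reg2, Reg1 and Reg3g, and none of these 5 was listed, nor was Reg4. Of 30 genes of antimicrobial proteins 2 were listed (6.67%), Reg3a and Zg16; whether this share differs from the 14.8% of all genes was not tested. Of 24 genes of signals that induce REG3 proteins 4 were listed (16.7%), 3 lower and 1 higher in KO, again near the share of all genes. Il22ra1, the epithelial subunit of the interleukin-22 receptor, had 1148 ± 200 normalised counts in KO (SD, n = 7) and 1511 ± 302 in flox (SD, n = 9), and a log2 fold change of -0.40 (adjusted p = 0.0272) in the authors' deposited table; its adjusted p in limma was 0.0606.

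The kinase Tyk2, which signals from that receptor, had 580 ± 52 normalised counts in KO and 701 ± 43 in flox and passed limma, with an adjusted p of 0.0197. Irak4, a kinase downstream of Toll-like receptors, had 833 ± 95 in KO and 998 ± 128 in flox, with an adjusted p of 0.0783 in limma. Osmr, the oncostatin M receptor, was higher in KO but rare, at 1.87 to 47.8 normalised counts in KO and 0 to 10.4 in flox. Il22, Stat3, Myd88 and Nod2 were not listed. Of 20 regulators of secretory fate and Eph signalling 4 were listed (20%, against 14.8% of all genes), and 1 of the 4 is Ephb4, the deleted gene. Besides Ephb4, the ligand Efnb1 and the intestinal transcription factor Cdx2 were lower in KO, by 1.36-fold and 1.24-fold in the authors' deposited table, and both passed limma, with adjusted p-values of 0.0132 and 0.0333. Notch2 was 1.81-fold higher there and did not pass limma, with an adjusted p of 0.0779.

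Variation from library to library was compared within each group; whether the relations differ from each other was not tested. Within flox, Fcgbp and Zg16 went together, with a Pearson r of 0.81 (exact permutation p = 0.00564, adjusted p = 0.0338 over 6 relations) and a Spearman rho of 0.73 (exact permutation p = 0.0311, adjusted p = 0.187); without the 2 libraries farthest from the median of Fcgbp, r was 0.77. Within KO the same pair had an r of 0.57 and a rho of 0.46 (exact permutation p = 0.177 and 0.302), and r was 0.14 without the 2 farthest libraries. Fcgbp and Reg3a had an r of -0.01 and a rho of -0.11 in KO (exact permutation p = 0.975 and 0.840) and an r of -0.58 and a rho of -0.35 in flox (exact permutation p = 0.103 and 0.359), which turned to an r of 0.36 without the 2 farthest. Zg16 and Reg3a had an r of 0.37 and a rho of 0.43 in KO (exact permutation p = 0.414 and 0.354) and an r of -0.21 and a rho of 0.03 in flox (exact permutation p = 0.591 and 0.948). Of the 6 relations, only that of Fcgbp and Zg16 in flox passed by Pearson's r after adjustment, and none did by rho.

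The listed genes most like each of the 3 were found by Pearson's r over the 16 libraries after each group's mean was subtracted. For Fcgbp they were the tyrosine kinase gene Src (0.91), Dedd2 (0.88), Cep170b (0.88), the collagen receptor Ddr1 (0.87) and Tmc6 (0.85). For Zg16 they were the tetraspanin Cd151 (0.93), the membrane serine protease St14 (0.91), Clic1 (0.89), Fam83h (0.89) and again Src (0.88). For Reg3a they were Aoc1 (0.87), the diamine oxidase of the gut, the phospholipid-remodelling enzyme Lpcat3 (0.84), Sgpl1 (0.81), which cleaves sphingosine phosphate, Slc5a4b (0.80) and catalase, Cat (0.78). All of these genes were lower in KO. So were 648 of the 703 listed genes with a mean from 1000 to 10000 normalised counts, the range of most of them. The same measure was 0.74 between Fcgbp and Zg16, -0.41 between Fcgbp and Reg3a and -0.00 between Zg16 and Reg3a. Libraries share their scaling, pancreatic content and cell makeup across all genes, so these values describe likeness only.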

How the data were processed

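The authors deposited normalised counts, a signal per gene and library. The submitters' processing notes name GRCm38 (mm10) and, without settings or order, DESeq2 1.20.0, featureCounts 1.5.0-p3 and HISAT2 2.0.5. Per the file headers, the authors' table also holds log2 fold changes (KO over flox), p-values and adjusted p-values, the last at most 0.0497. Recomputing the adjustment gave 16488 genes. Dividing by the smallest step of each library made 100% of values whole reads within 0.0001 reads. Size factors were 0.878 to 1.38.

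limma 3.58.1 (trend, robust) was run on listed genes averaging 10 or more, and unlisted genes entered the adjustment as not passing. It called 1269 genes; edgeR 4.0.16 and DESeq2 1.42.0 on recovered reads called 1315 and 2112. All were tested on simulated counts. The named genes are the 3 members, Ephb4, listed genes of the lists and the 5 most like each member. The members and lists were chosen with earlier results of these data known. No 2 libraries of a group were duplicates, with a chi-square per degree of freedom of at least 17.2. Counting is not stated to use strand; no exon of another gene overlaps the 3 genes in GENCODE vM21. The design text gives 7 KO and 9 flox mice, as many as libraries, but no label states that each library is 1 mouse; p-values measure the spread between these samples.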

Additional observations from a re-analysis of the deposited data

Results flagged for a closer look

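Of 12 groups of libraries checked for a value far from the others, 4 held one. Chance gives about 1 in 20 groups only if the values are normally distributed. The pancreatic sums in flox lay in separate clusters, so that rate does not apply to them. Ephb4 was at 84.7 normalised counts in KO replicate 1, above the rest of KO. The summed non-epithelial markers were at 1886 in flox replicate 2, far above the other flox libraries. Summed pancreatic acinar genes were at 1786 in KO replicate 7, which had the lowest Reg3a count of all libraries, and at 151344 in flox replicate 10, which had the highest Zg16 count. Each of these is 1 library only. No library was far from the others in Fcgbp, Zg16 or Reg3a itself.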

How the results depend on the processing

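Fcgbp and Reg3a were lower in KO under each of 29 alternatives and Zg16 under 28, where quantile normalisation turned it to 0.061. In limma with all libraries and no covariate none of the 3 passed. They passed with DESeq2 on recovered reads, at -0.37, -0.30 and -0.80 for Fcgbp, Zg16 and Reg3a. Reg3a passed with the pancreatic score as covariate (-1.14), a score that overlaps with genotype. Leaving out each library in turn gave -0.41 to -0.31 for Fcgbp, -0.34 to -0.24 for Zg16 and -0.91 to -0.65 for Reg3a. Fcgbp then passed without KO replicate 8 or flox replicate 2, 5 or 7, and Reg3a without flox replicate 4. Genes passing limma ranged from 518 to 1458 in the same way, against 1269; they were 645, 622 and 518 without KO replicates 1, 5 and 7 and 615, 838 and 646 without flox replicates 3, 4 and 10. The count was 357 with quantile normalisation, 2112 with DESeq2, 7 and 390 with the non-epithelial and pancreatic scores as covariates, 11 without the 5 flox libraries with pancreatic transcripts and 374 with edgeR without KO replicates 1 and 3. The last 2 settings were chosen after seeing the data; the cause was not tested.

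The ratios of Reg3a over Zg16 and over Fcgbp passed without the 5 flox libraries, a choice made after seeing the data (-0.91 and -0.92). Zg16 over Fcgbp turned to -0.0063 there. Leaving out single libraries gave -0.63 to -0.38, -0.60 to -0.31 and 0.03 to 0.12. The correlations kept their side with a pseudocount of 8. With the replicate number as a replicate block, the log2 differences were -0.37, -0.28 and -0.97, no gene of the 3 passed and 9 listed genes did. Same-numbered libraries correlated from -0.43 to 0.37 over 6 numbers, so the numbers were not taken to pair libraries.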
